A study of Rattus norvegicus with 4 samples.

Results

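The AP-1 family genes Fos, Fosl1, Fosl2, Jun, Junb, Jund and Atf3 were followed in the stroke-side cortex of rats. They were found as the array probe sets whose only gene symbol in the platform annotation is 1 of these 7 names, which gave 14 probe sets for 7 of the 4736 genes named on the array. Fos and Jun genes encode the subunits of activator protein 1 (AP-1), a transcription factor made of a pair of leucine-zipper proteins. Jun proteins can pair with each other or with Fos proteins, whereas Fos proteins need a Jun partner. Fos and Junb are textbook immediate early genes: in neurons their transcripts appear within minutes of calcium entry or growth factor signals and are short-lived. Focal ischaemia and the depolarisation waves around it are well known to induce them in rodent cortex, and estradiol receptors can act on target genes through AP-1.

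Expression was compared between 2 groups of ovariectomised female rats, 1 given 17beta-estradiol replacement and 1 given placebo. In all of them the middle cerebral artery had been closed for 2 h from inside the vessel and then reopened. RNA of 3 animals was pooled for an array, and 2 pools made up a group, so a group rests on 6 animals. Below, estradiol 1 and estradiol 2, placebo 1 and placebo 2 stand for the pools as the sample titles number them. The series design text names tissue from 6 and 24 h, and the labels of these 4 arrays do not state the time in words. The codes in all 4 titles hold a 6 (E6IC or P6IC), which no label explains. The labels state neither strain, age nor estradiol dose. No sham-operated or contralateral tissue was analysed here, so the values cannot say how far any gene had been induced by the stroke.

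Values are linear intensities that the authors had scaled to a common level on each array. A probe set was called at background on an array where it did not exceed the highest of 23 controls for transcripts foreign to the rat, which stood between 30.1 and 37.8 on the 4 arrays. Differences were tested with limma on log2(intensity + 16) for the 5244 probe sets above an intensity filter, 12 of the 14 AP-1 probe sets among them. Fold changes are given on that scale, estradiol minus placebo. They understate the change of dim probe sets. Intensities of different probe sets cannot be set against each other, because each has its own probes. Of the cortical neuron markers, Nrgn stood at 4210 and 3855 in estradiol and 4721 and 5561 in placebo pools, while the probe set of Slc17a7, the vesicular glutamate transporter of cortical neurons, was at background on every array.

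RefSeq promoters (250 bases before to 50 after the gene start, build GRCr8) were at hand for 4 of the 7 genes, Fosl1, Fosl2, Junb and Jund, and not for Fos, Jun and Atf3. Those of Junb and Jund are shown as a pair of Jun genes, only 1 of which could be followed on these arrays. Junb was above background on every array and differed several-fold between pools, and the probe set of Jund was at background throughout. Junb lies on chromosome 19 (chr19:40080876-40081175, plus strand) and Jund on chromosome 16 (chr16:18769722-18770021, minus strand). Each window is printed 5′ to 3′ on the strand of its gene. Capitals mark the letters TGACG (the core of the cyclic AMP response element) and CCAAT and TATAAA (common promoter boxes), searched on both strands.
Junb: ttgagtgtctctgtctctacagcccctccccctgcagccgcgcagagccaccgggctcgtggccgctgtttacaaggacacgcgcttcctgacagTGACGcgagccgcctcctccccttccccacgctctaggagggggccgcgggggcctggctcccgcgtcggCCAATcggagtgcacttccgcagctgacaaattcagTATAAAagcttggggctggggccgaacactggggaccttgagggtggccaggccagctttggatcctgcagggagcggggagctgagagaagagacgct
Jund: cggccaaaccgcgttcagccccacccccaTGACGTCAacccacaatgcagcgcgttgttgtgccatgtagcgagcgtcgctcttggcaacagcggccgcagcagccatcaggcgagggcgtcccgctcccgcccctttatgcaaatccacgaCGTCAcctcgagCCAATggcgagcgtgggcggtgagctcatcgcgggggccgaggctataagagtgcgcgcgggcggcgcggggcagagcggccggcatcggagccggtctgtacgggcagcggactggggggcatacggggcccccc

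The Junb window held 1 TGACG, beginning 155 bases before the start, a CCAAT box at 85 bases and a TATAAA at 49 bases before it. The Jund window held the full palindrome of the cyclic AMP response element, TGACGTCA, 221 bases before the start. A further core lay on the opposite strand 98 bases before the start, and a CCAAT box at 86 bases. The palindrome contains the core on both strands. Among 27457 promoters of this length, 1.89% held TGACGTCA, 21.9% TGACG, 14.3% TATAAA and 37.7% CCAAT. The Fosl1 window held 2 TGACG cores, on the opposite strand, 148 and 84 bases before the start, and that of Fosl2 held none of these. No AP-1 site itself (TGACTCA or TGAGTCA, found in 4.62% of promoters) and no serum response element (1.64%) was found in these 4 windows. Such matches describe letters and do not show that a factor was bound.

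Fos, which encodes the prototype Fos subunit, had 3 probe sets, all above background on every array. X06769cds_g_at stood at 1866 and 577.6 in estradiol 1 and 2, against 1326 and 443.2 in placebo 1 and 2. Pool 1 was high and pool 2 low in either treatment, so the groups overlapped. The mean was 1222 ± 911 in estradiol and 884.6 ± 624 in placebo pools (SD, n = 2 each). The log2 fold change was 0.43 ± 0.61 (SE, limma, adjusted p = 0.998), with a 95% interval from -0.99 to 1.85. X03347cds_g_at, which the annotation names Fos through another sequence record than the one in its ID, stood at 922.5 and 285.0 in estradiol pools, against 656.9 and 226.3 in placebo pools, and a log2 fold change of 0.40 ± 0.60. X06769cds_at, made from the same sequence record as X06769cds_g_at, stood at 465.9 and 124.6 in estradiol pools and at 271.4 and 42.5 in placebo pools. Its log2 fold change of 1.01 ± 0.77 was the largest of the family and, without placebo 2, where it came close to background, it was -0.14.

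The sign of the Fos difference changed with the pool left out. For X06769cds_g_at the log2 fold change was -0.40 without estradiol 1 and -0.34 without placebo 2. It was 1.26 without estradiol 2 and 1.20 without placebo 1. For X06769cds_at it reached 2.15 without placebo 1.

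Junb, a Jun subunit that is a weaker activator than Jun and can restrain it, had the same order of arrays as Fos. rc_AA891041_at stood at 720.3 and 246.4 in estradiol 1 and 2, against 533.3 and 158.6 in placebo 1 and 2. X54686cds_at stood at 594.5 and 298.6 in estradiol pools, against 389.7 and 171.5 in placebo pools. Both were high in pool 1 and low in pool 2 of either treatment, so the groups overlapped. Their log2 fold changes were 0.51 ± 0.60 and 0.67 ± 0.42 (SE, limma, adjusted p = 0.998 each). For rc_AA891041_at the value was -0.24 without estradiol 1 and -0.32 without placebo 2. X54686cds_at was the only 1 of the 12 tested probe sets with the same sign whichever array was left out. Its value was 0.11 without placebo 2, 0.19 without estradiol 1, 1.15 without estradiol 2 and 1.22 without placebo 1.

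**Figure D1:**
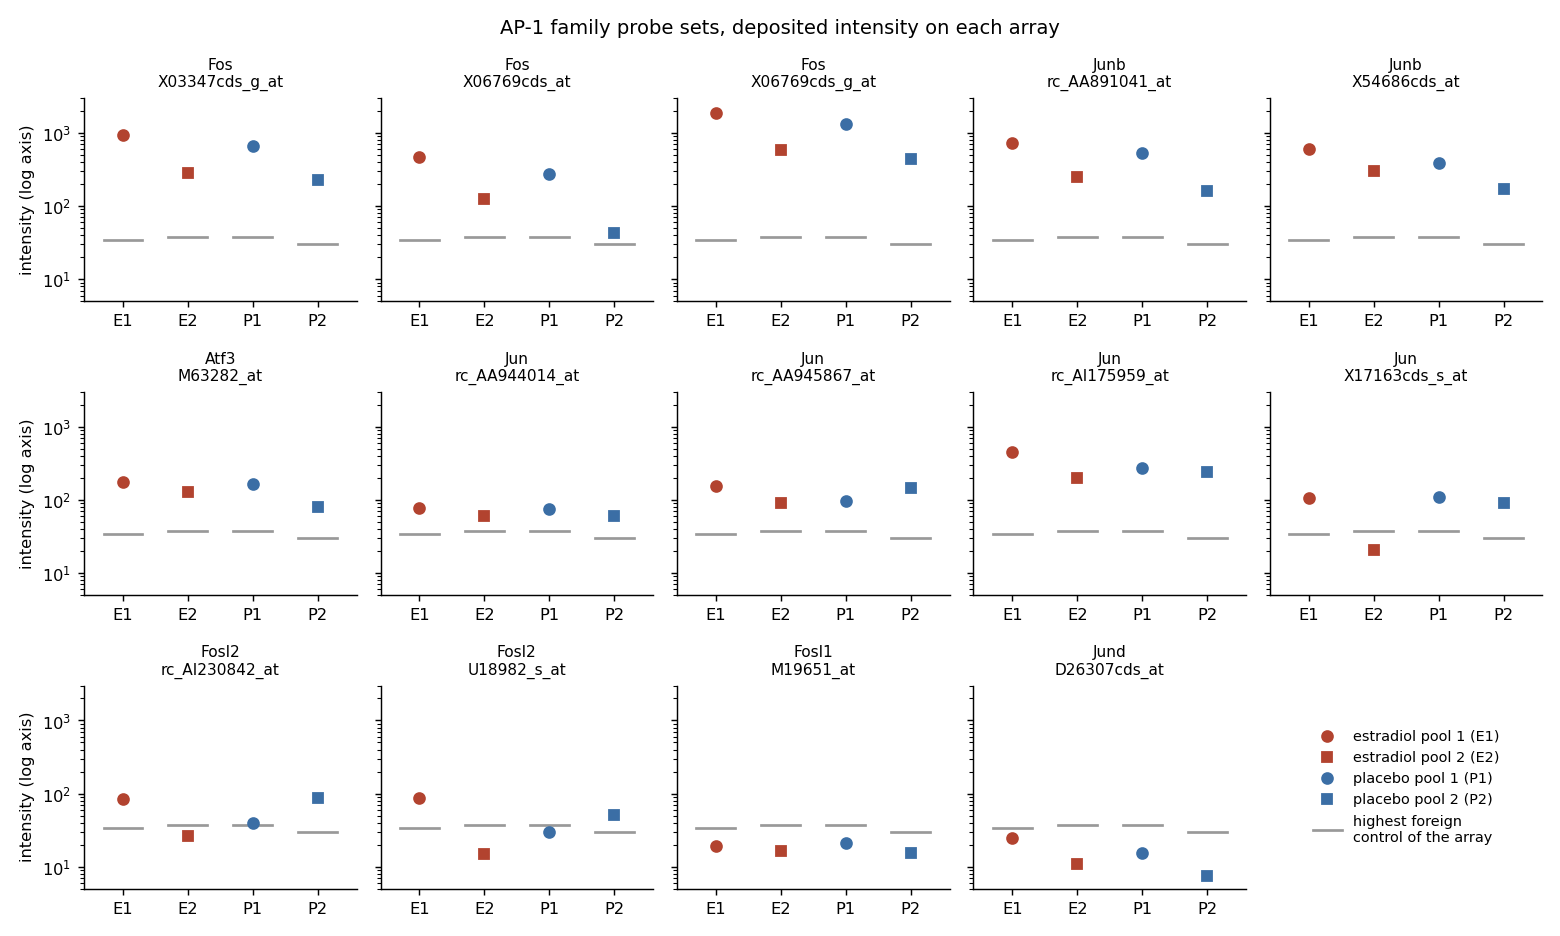
Deposited intensity (log axis) of each of the 14 AP-1 family probe sets on the 4 arrays, estradiol pools left and placebo pools right, circles for pool 1 and squares for pool 2. Grey bars mark the highest foreign control of each array, between 30.1 and 37.8. In all 5 Fos and Junb panels both pool 1 values lie above both pool 2 values, whereas Fosl1 and Jund lie under the bars.

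Atf3, a stress-induced bZIP factor that can pair with Jun proteins, varied less. It stood at 174.4 and 128.3 in estradiol 1 and 2, against 164.1 and 80.3 in placebo 1 and 2. Only placebo 2 was clearly lower, and the groups overlapped. The log2 fold change was 0.33 ± 0.33 (SE, limma, adjusted p = 0.998), or -0.12 without placebo 2 and 0.78 without placebo 1.

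Jun, the strongest activator among the Jun proteins and the main nuclear target of the Jun N-terminal kinases, had 4 probe sets that gave different pictures. rc_AI175959_at stood at 453.0 and 201.0 in estradiol 1 and 2, against 274.5 and 237.1 in placebo 1 and 2. Estradiol 1 was high and the other 3 arrays lay together, and the log2 fold change was 0.23 ± 0.35, or -0.32 without estradiol 1. rc_AA945867_at stood at 156.4 and 91.4 in estradiol pools, against 97.7 and 145.5 in placebo pools, so its placebo pools ran in the order opposite to those of Fos. rc_AA944014_at was nearly flat at 76.7 and 60.3 in estradiol and 74.5 and 59.5 in placebo pools.

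The fourth Jun probe set, X17163cds_s_at, stood at 107.7 and 20.9 in estradiol pools, against 109.4 and 89.7 in placebo pools. Estradiol 2 alone was at background, and the log2 fold change was the lowest of the family, -0.77 ± 0.52 (SE, limma, adjusted p = 0.998). Without estradiol 2 the value was 0.10. The suffix of this probe set marks probes shared by several transcripts in the manufacturer's naming. Estradiol 2 was the lowest array in 3 of the 4 Jun probe sets. The log2 fold changes of rc_AA945867_at and rc_AA944014_at were 0.01 and 0.02, and both were below 0 after quantile normalisation or median centring.

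Fosl2, which encodes Fra-2, a slower and more lasting member of the Fos family that lacks the strong activating end of Fos, had another order of arrays than Fos. rc_AI230842_at stood at 83.3 and 26.5 in estradiol 1 and 2, against 40 and 86.9 in placebo 1 and 2. U18982_s_at stood at 87.0 and 14.8 in estradiol pools, against 29.5 and 51.5 in placebo pools. In both, estradiol 2 was at background, and placebo 2 was above placebo 1. The log2 fold changes were -0.22 ± 0.48 and 0.02 ± 0.58 (SE, limma, adjusted p = 0.998 each), and their signs turned with the array left out, as the ranges of -0.84 to 0.39 and -0.85 to 0.89 show. U18982_s_at was at background in placebo 1 as well, and had a log2 fold change of -0.10 with an offset of 1 in place of 16. Its suffix too marks shared probes.

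Fosl1, which encodes Fra-1, and Jund, the Jun subunit usually present at a steady level in resting cells, could not be compared. M19651_at of Fosl1 stood at 19.2 and 16.6 in estradiol and 21.2 and 15.7 in placebo pools. D26307cds_at of Jund stood at 24.6 and 11 in estradiol and 15.4 and 7.5 in placebo pools. Both were at background on all 4 arrays and below the intensity filter, so no fold is given. This says that these probe sets gave no signal above the controls, not that the transcripts were absent.

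Of the 12 tested probe sets, 10 had log2 fold changes above 0 and 2 below, with a median of 0.28, against 0.01 over all 5244 probe sets tested, of which 51.6% lay above 0. That balance changed with the array left out. Above 0 lay 3 of the 12 without estradiol 1 (median -0.33) and 12 without estradiol 2 (0.84). Without placebo 1 it was 8 (0.56), and without placebo 2 it was 5 (-0.11). Leaving out 1 array sets unequal pool numbers against each other, so the difference between pools 1 and 2 enters these values. In all 5 Fos and Junb probe sets estradiol 1 was above placebo 1 and estradiol 2 above placebo 2, though no label pairs them. None of the 12 passed. In limma with Benjamini-Hochberg adjustment 0 of the 12 were called at an adjusted p below 0.05, where 0% of all probe sets were called. At an unadjusted p below 0.05 there were 0 of the 12 as well, against 161 or 3.07% of all. The smallest unadjusted p of the family was 0.156, for Junb X54686cds_at, in limma. In no AP-1 probe set did both estradiol pools lie on 1 side of both placebo pools. Over all tested probe sets 15.4% had both estradiol pools above both placebo pools and 14.3% had them below. With 2 pools a side, an exact two-sided permutation test of a single value cannot give a p under 0.333. The 12 probe sets belong to 5 genes and are not independent of each other.

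**Figure D2:**
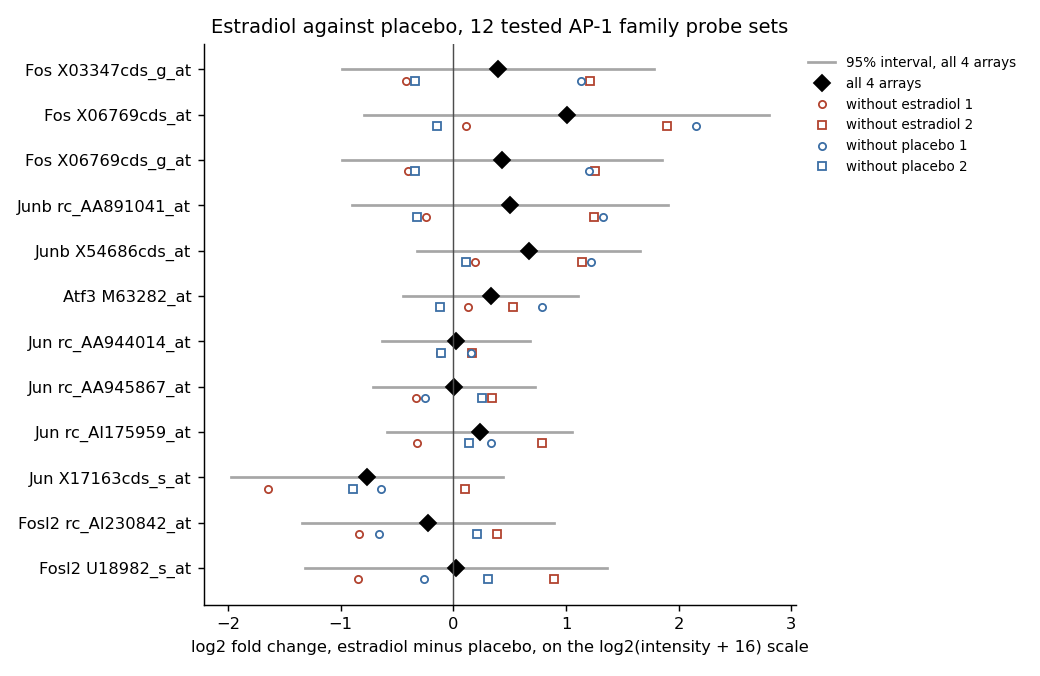
Log2 fold changes of estradiol against placebo for the 12 tested AP-1 family probe sets on the log2(intensity + 16) scale, black diamonds with 95% intervals as grey lines. Open symbols give the value with 1 array left out. Every interval spans 0, and the open symbols lie on both sides of 0 for 11 of the 12 probe sets.

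The larger differences lay between the pools of 1 treatment. For Fos X06769cds_g_at pool 1 exceeded pool 2 by 1.66 on the log2 scale in estradiol and by 1.55 in placebo rats, which are ratios of 3.23 and 2.99 in intensity. For Fos X06769cds_at they were 1.78 in estradiol and 2.30 in placebo rats. For Junb rc_AA891041_at these differences were 1.49 in estradiol and 1.65 in placebo rats. Atf3 had 0.40 in estradiol and 0.90 in placebo rats. Jun rc_AI175959_at had 1.11 in estradiol rats but 0.20 in placebo rats. Fosl2 rc_AI230842_at had -0.88 in placebo rats, and no size is given for estradiol rats because estradiol 2 was at background. Fos and Junb thus differed between pools in the same direction in both treatments. These are differences between 2 pools each, without a test.

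Both pool 1 arrays lay above both pool 2 arrays in 9 of the 12 tested AP-1 probe sets, where this held for 17.4% of all tested. The reverse held for 0 of the 12, against 21.3% of all. A difference above 1 on the log2 scale in both treatments was seen in 4 of the 12, 3 of Fos and 1 of Junb, and in 24 of the 5244 probe sets tested, or 0.458%. The median difference over the 12 was 1.36 in estradiol and 0.58 in placebo rats, while over all probe sets tested it was -0.01 in estradiol and -0.04 in placebo rats. The estradiol median of the 12 includes both Fosl2 probe sets and Jun X17163cds_s_at, for which estradiol 2 was at background, so its size is uncertain. The arrays ran in the order estradiol 1, placebo 1, estradiol 2, placebo 2 from high to low in 7 of the 12, including all 5 of Fos and Junb. That order was met in 3.76% of all tested. Estradiol 1 was the highest array in 10 of the 12, against 23.1% of all. The pool numbers come from the titles, and no label says that pools with the same number share a day, a batch or a litter.

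**Figure D3:**
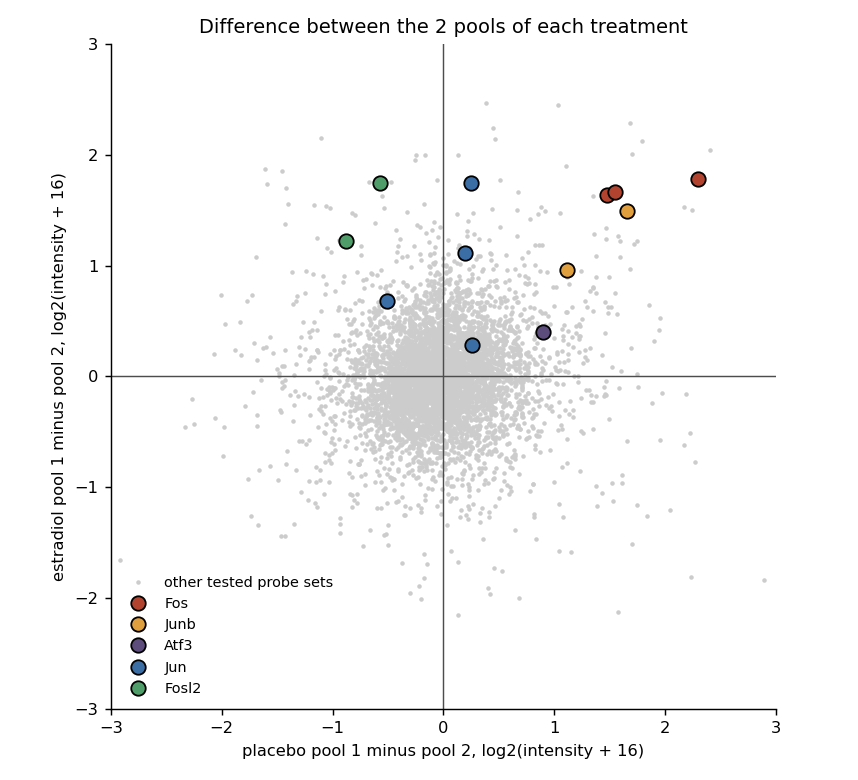
Difference between pool 1 and pool 2 on the log2(intensity + 16) scale, placebo pools across and estradiol pools upwards, for all tested probe sets (grey) and the 12 tested AP-1 family probe sets (coloured by gene). The axes end at 3, which leaves out 4 of the 5244 probe sets. Fos and Junb lie in the upper right, the 2 Fosl2 points in the upper left, where estradiol 2 was at background for both.

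Markers of other cells also differed between the pools. All 5 tested oligodendrocyte markers were higher in both pool 1 arrays than in both pool 2 arrays, where 16.0% of all genes were. The summed intensity of these 5 was 16351 and 12394 in estradiol 1 and 2, against 20388 and 13094 in placebo 1 and 2. None of them was at background. Of 7 neuron markers, 5 ran the other way, against 22.9% of all genes. The sums of the 7 were 7112 and 7858 in estradiol pools, against 6304 and 8728 in placebo pools, again with none at background. All 4 blood cell markers were lower in both estradiol pools than in both placebo pools, against 14.0% of all genes. Hbb stood at 958.7 and 2310 in estradiol pools, against 3517 and 3055 in placebo pools. Microglia and macrophage markers summed to 615.8 and 652.6 in estradiol pools, against 862.9 and 628.6 in placebo pools, with Itgam and Csf1r at background on every array. Lyz2, the brightest of them, stood at 285.6 and 253.6 in estradiol pools, against 513.6 and 257.9 in placebo pools. Ptprc stood at 65.5 and 57.3 in estradiol pools, against 60.2 and 134.5 in placebo pools, so these markers did not move together. Ttr rc_AA945169_at, for transthyretin made in the choroid plexus, had 165.3 and 4312 in estradiol pools, against 8034 and 74.3 in placebo pools. Among the other choroid plexus and meninges markers, Igf2, Col1a1, Slc4a2 and Dcn ran in the same directions within each treatment. Igf2 stood at 204.2 and 412.5 in estradiol pools, against 510.1 and 155.7 in placebo pools. Dcn was above background on 2 arrays only. Col3a1 ran the opposite way, at 89.6 and 78.3 in estradiol pools, against 63.1 and 108 in placebo pools. Igfbp2, by its brightest probe set, was higher in pool 1 of both treatments. The part of tissue composition in the AP-1 differences was not tested. In pooled tissue, fewer cells of a type and less RNA per cell cannot be told apart.

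The genes most like Fos were taken as those with the smallest root mean square difference from X06769cds_g_at over the 4 arrays, after each probe set was centred on its own mean log2 value. The median of that difference over all tested probe sets was 0.864. Fos X03347cds_g_at had 0.032 and Junb rc_AA891041_at 0.082, which placed them 2nd and 4th among 4327 named probe sets. In that ranking X06769cds_g_at itself was 1st. Junb X54686cds_at had 0.317 and Fos X06769cds_at 0.393. Atf3 had 0.504 and Jun rc_AI175959_at 0.524, while the other Jun probe sets had 0.698, 0.756 and 0.832. Fosl2 U18982_s_at had 0.776, nearer to Fos than the median probe set. Fosl2 rc_AI230842_at had 0.931, farther from Fos than the median probe set.

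Outside the family the nearest was Nr4a1, an immediate early nuclear receptor gene, at 0.041. Its probe set U17254_at stood at 810.7 and 252.7 in estradiol 1 and 2, against 551.1 and 178.4 in placebo 1 and 2, and its other probe set kept the same order of arrays. Next came Egfl7, a gene of blood vessel cells, at 0.206, though its probe set was at background in both pool 2 arrays. Hspb1, a small heat shock protein gene, had 0.210, and its probe set stood at 2183 and 1028 in estradiol pools, against 1918 and 623.2 in placebo pools. The 3 other Hspb1 probe sets had 0.247, 0.397 and 0.614 and did not keep the order of arrays. Rhd, a red cell membrane protein gene, had 0.230, but 0.673 by its other probe set. The zinc finger gene Egr2 had 0.257, and it too was at background in both pool 2 arrays. Only 4 arrays stand behind these rankings.

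**Figure D4:**
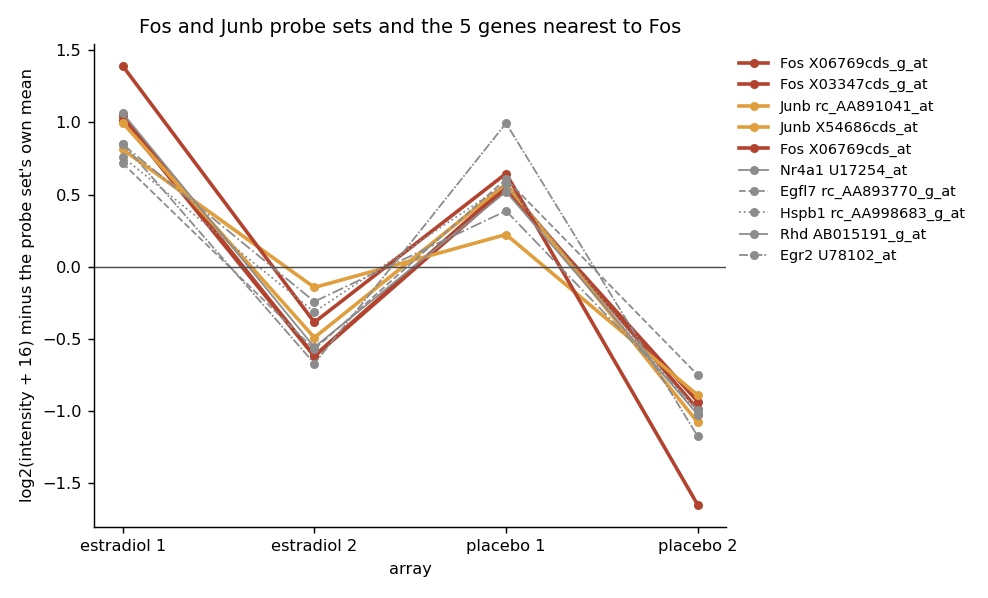
Log2(intensity + 16) minus each probe set's own mean over the 4 arrays, for the 3 Fos and 2 Junb probe sets (coloured) and the nearest probe set of the 5 genes most like Fos X06769cds_g_at (grey). Estradiol 1 and placebo 1 lie above 0, and estradiol 2 and placebo 2 below 0, for every line.

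Other immediate early genes were often higher in pool 1 of both treatments. Of 26 tested genes outside AP-1, each by its probe set of highest mean intensity, 13 had log2 fold changes above 0 and 13 below, with a median of 0.02, against 0.01 over 3181 genes. None was called in limma, 3 had both estradiol pools above both placebo pools and 3 below, where 16.1% and 14.0% of all genes did. Both pool 1 arrays lay above both pool 2 arrays for 15 of the 26, against 16.0% of all genes, and the reverse for 0, against 22.9%. The highest fold changes were 0.51 for Nr4a1 and 0.50 for Klf6, and the lowest -0.67 for Ier5 and -0.50 for Crem. Without placebo 2 the median was -0.35, and without placebo 1 it was 0.33. Egr1 AF023087_s_at stood at 5842 and 1324 in estradiol pools, against 5858 and 1677 in placebo pools. Arc stood at 1883 and 817.1 in estradiol pools, against 1819 and 974.9 in placebo pools. Arc and 3 of the 4 Egr1 probe sets had placebo 2 above estradiol 2, the order opposite to that of Fos. Egr1 U75398_s_at did not split by pool, at 130.3 and 131.6 in estradiol pools, against 206.4 and 180.7 in placebo pools.

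Other bZIP factors, which share the zipper fold but not the AP-1 name, were examined next. Of 12 tested, 7 had values above 0 and 5 below, with a median of 0.07 (-0.03 without estradiol 1 and 0.29 without placebo 2). For 1 of the 12 both pool 1 arrays lay above both pool 2 arrays, against 16.0% of all genes. Ddit3, the stress factor CHOP, stood at 119.6 and 204.1 in estradiol pools, against 103.6 and 74.8 in placebo pools. Its log2 fold change was 0.73 ± 0.30 (SE, limma, adjusted p = 0.998). Cebpb, a factor of acute-phase and injury responses, stood at 109.4 and 81.6 in estradiol pools, against 64.5 and 44.9 in placebo pools, with 0.66 ± 0.29. For these 2 genes the groups did not overlap, and neither passed. In all, 4 of the 12 had both estradiol pools above and 2 below both placebo pools, where 16.1% and 14.0% of all genes did. Crem had -0.50 and Creb1 -0.30, the lowest of the list. Atf2, Cebpa and Batf3 lay below the intensity filter.

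Kinases and factors upstream of AP-1 lay close to 0. Of 13 tested, 9 had values above 0 and 4 below, with a median of 0.03 (-0.05 without placebo 1 and 0.12 without estradiol 2) and none called in limma. Their fold changes ran from -0.35 for Mapk14, which encodes p38 alpha, and -0.33 for Map2k2 up to 0.27 for Mapk9, a Jun N-terminal kinase gene, and 0.33 for Map3k12. Both pool 1 arrays lay above both pool 2 arrays for 3 of the 13 and below them for 3, against 16.0% and 22.9% of all genes.

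Of 21 tested genes that are known AP-1 targets, 11 had values above 0 and 10 below, with a median of 0.00, and none was called in limma. The list is not independent of earlier results, since Tac1 and Penk were known to have high values with estradiol. Tac1, the substance P precursor gene, had 1.68 ± 0.21 (SE, limma, adjusted p = 0.285) and Penk, the enkephalin precursor gene, 1.33 ± 0.26 (adjusted p = 0.998 in limma). Both are also striatal markers, and the other 8 on the array summed to 1828 and 1738 in estradiol pools, against 1644 and 1653 in placebo pools. Pdyn, the brightest of these 8, stood at 1150 and 686.9 in estradiol pools, against 1066 and 923.4 in placebo pools. Of the 8, Drd2 was at background on every array, 2 had both estradiol pools above both placebo pools and 0 had them below. Over all genes tested 16.1% had them above and 14.0% below. Rgs9, 1 of those 2, was above background on 1 array only. Drd1, the other, was above background on all 4 arrays. It stood at 74.1 and 134 in estradiol pools, against 48.8 and 51.4 in placebo pools. Of all 9 striatal markers tested, Tac1 and Penk included, 4 had both estradiol pools above both placebo pools and 0 had them below. The lowest of the AP-1 targets were Plaur with -0.59 and Plau with -0.52, the urokinase receptor and urokinase genes. The list's median was -0.21 without placebo 2 and 0.42 without placebo 1. Both pool 1 arrays lay above both pool 2 arrays for 10 of the 21, against 16.0% of all genes. Among these 10 was Hspb1, whose rc_AI176658_s_at stood at 2381 and 1014 in estradiol pools, against 2718 and 795.9 in placebo pools.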

How the data were processed

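Gene expression had been measured on Affymetrix rat genome arrays, 1 per pool, per the series design text. The authors deposited a linear intensity for each probe set on each array. The mean after trimming 2% at each end was 150.0 on every array, so arrays had been scaled before deposit, by a program the labels do not name. The table's 8799 rows include 59 controls, which were dropped, and 7006 of the other 8740 had a single symbol. Array medians lay within 0.056 on the log2 scale, so values were used as deposited. The 3′ to 5′ ratio of control transcripts is a rough measure of RNA quality. For actin it was 1.28 and 1.58 in estradiol 1 and 2, against 1.39 and 1.47 in placebo 1 and 2. For hexokinase it was 3.27 and 4.35 in estradiol pools, against 3.64 and 3.08 in placebo pools. For GAPDH it was 1.38 and 1.30, against 1.45 and 1.42. The part of RNA quality in the pool differences was not tested. Probe sets with a mean below the 40th percentile (37.5) were left out, and log2(intensity + 16) was tested in limma 3.58.1 (R 4.3.3; lmFit, eBayes with intensity trend, two-sided, Benjamini-Hochberg over 5244 probe sets), which was also tested on simulated data. The fit had 2 residual and 5.63 prior degrees of freedom. The number of arrays limits the precision. The p-values set the group difference against the spread between pools of 3 animals, moderated with that of the other probe sets. They do not reflect the spread between single animals.

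The members and lists were chosen with earlier results of these data known. Named were every member probe set, Egr1, Nr4a1, Arc and Ttr, the 2 highest and 2 lowest genes of each related list and the 5 genes nearest to Fos; other names were chosen after their values were seen. Lists used each gene's brightest tested probe set. Python 3.11.15 with pandas 2.3.3 was used for the counts and matplotlib 3.10.9 for the figures. The alternatives were offsets of 1 and 64, no filter or one at the 60th percentile, quantile normalisation, median centring, no intensity trend, pool number as a block and leaving out each array.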

Additional observations from a re-analysis of the deposited data

How the results depend on the processing

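No AP-1 probe set and no probe set of any gene was called in limma under the alternatives that kept all 4 arrays. The count of AP-1 probe sets with both pool 1 arrays above both pool 2 arrays was 9 in 4 of 6 alternatives. It was 11 of 14 with every probe set kept, and 7 once those under the 60th percentile (4 of the 12) were dropped. An offset keeps the order of the arrays and a filter only adds or drops probe sets. Only quantile normalisation and median centring could therefore have changed the order, and both gave 9. The sign turned for 3 probe sets with values near 0. After median centring the log2 fold change was -0.0095 for Fosl2 U18982_s_at, -0.0079 for Jun rc_AA944014_at and -0.027 for Jun rc_AA945867_at. After quantile normalisation it was -0.0047 for Jun rc_AA944014_at and -0.0097 for Jun rc_AA945867_at, and with an offset of 1 it was -0.10 for Fosl2 U18982_s_at. With 1 array left out, 11 of the 12 took both signs. The ranges were -0.42 to 1.22 for Fos X03347cds_g_at, -0.14 to 2.15 for Fos X06769cds_at, -0.40 to 1.26 for Fos X06769cds_g_at, -0.32 to 1.33 for Junb rc_AA891041_at and -0.12 to 0.78 for Atf3. They were -0.12 to 0.17, -0.34 to 0.35, -0.32 to 0.79 and -1.64 to 0.10 for Jun rc_AA944014_at, rc_AA945867_at, rc_AI175959_at and X17163cds_s_at, and -0.84 to 0.39 and -0.85 to 0.89 for Fosl2 rc_AI230842_at and U18982_s_at. Leaving out 1 array sets unequal pool numbers against each other, so the difference between pools 1 and 2 enters these ranges. What lay behind that difference was not tested. A lone array of a group is assumed there to vary like the others.

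The deviations of pools with the same number had a correlation of 0.036 over all tested probe sets (2 pairs), and no label ties them, so the pools were not taken as paired. Whether they share a day or batch was not tested. With the pool number as a replicate block, 0 probe sets were called in limma. In that fit 4 of the 12 AP-1 probe sets, 2 of Fos and 2 of Junb, had an unadjusted p below 0.05. Their unadjusted p lay between 0.0045 and 0.047, with an adjusted p of 0.989 in limma. Over all probe sets tested, 210 of 5244 had an unadjusted p below 0.05 in the same fit.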
